A study of Mus musculus with 18 samples.

Results

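Striatal RNA of zQ175 mice that lacked 1 allele of CK2a' was compared with that of wild type (WT) mice, gene by gene. The comparison used the 5 libraries labelled zQ175:CK2a'(+/-) and the 5 labelled WT, 10 of the 18 libraries of the series, and of the 55421 genes in the deposited count table it covered the 20914 that had enough counts to be tested. Each library came from the striatum of 1 mouse aged 12 to 14 months, and the remaining libraries were from 5 zQ175 mice and 3 CK2a'(+/-) mice of the same age. The zQ175:CK2a'(+/-) mice carried a single zQ175 allele, in which the mouse huntingtin gene holds a human-derived first exon with an expanded CAG repeat, together with 1 null allele of Csnk2a2. The WT mice carried neither. Both alleles are germline alleles, present in every cell type. All mice had a C57BL/6 background by the labels and methods, the CK2a' null line, first obtained on 129/SvEv-C57BL/6J, having been crossed over many generations with the other lines. According to the methods, each of the 2 groups held 4 females and 1 male, whereas the zQ175 group held 2 females and 3 males and the CK2a'(+/-) group 1 female and 2 males.

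An expanded CAG repeat in huntingtin causes Huntington's disease, in which the GABAergic projection neurons of the striatum (medium spiny neurons) are hit hardest. These neurons form a direct pathway, marked by the dopamine receptor Drd1, and an indirect pathway, marked by Drd2, the adenosine receptor Adora2a and the enkephalin precursor Penk. CK2 is a serine/threonine kinase that acts on many neuronal proteins. It is built from catalytic alpha and alpha prime subunits, encoded by Csnk2a1 and Csnk2a2, and from regulatory beta subunits encoded by Csnk2b.

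Total counts ranged from 14176224 to 22184692 in WT and from 13612381 to 19058342 in zQ175:CK2a'(+/-) mice, and log2 values of libraries of 1 group correlated at 0.950 to 0.970. In each group 4 of 5 libraries had a high Xist level and 1 of 5 a high Ddx3y level, the same numbers as the stated females and males. Libraries stood apart in 2 ways. The summed level of 12 choroid plexus markers was 2841 CPM in WT replicate 1, 2555 CPM in WT replicate 3 and 4524 CPM in zQ175:CK2a'(+/-) replicate 2, against 186 to 256 CPM in the other 7 libraries. WT replicates 4 and 5 had lower levels of many projection neuron genes than the other 3 WT mice, with values given below beside those genes. Csnk2a2 in these 2 libraries, at 30.4 and 30.5 CPM, was at the level of the other WT mice, but no value in the count table shows whether a library carries the zQ175 allele, so their WT label was not checked in that respect. Levels are in CPM, read counts scaled to a common library size by the TMM method, differences are log2 fold changes of zQ175:CK2a'(+/-) over WT with their standard error (SE), and a gene passed where its Benjamini-Hochberg adjusted p was under 0.1.

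The gene deleted on 1 allele was lower in every zQ175:CK2a'(+/-) mouse. Csnk2a2 (ENSMUSG00000046707, GRCm38 chromosome 8, minus strand), which encodes CK2a', was at 29.4, 34.96, 32.7, 30.4 and 30.5 CPM in the WT mice and at 18.3, 16.3, 19.9, 17.9 and 15.8 CPM in the zQ175:CK2a'(+/-) mice. The 2 groups did not overlap. Csnk2a2 fell by 0.84 on the log2 scale (SE 0.09, adjusted p = 0.000261 in edgeR's quasi-likelihood test), and the difference in mean log2 CPM had the smallest p that 5 mice against 5 allow (exact two-sided permutation test, p = 0.00794). The other subunits did not pass. Csnk2a1 was at 55.4 ± 7.46 CPM in WT and 65.8 ± 8.43 CPM in zQ175:CK2a'(+/-) mice (SD, n = 5), a log2 difference of 0.25 (SE 0.10, edgeR adjusted p = 0.477). Csnk2b was at 43.5 ± 4.99 and 42.3 ± 3.23 CPM (SD, n = 5), a log2 difference of -0.04 whose sign turned when WT replicate 5 was left out (0.02). Huntingtin itself, Htt, was at 155 ± 23.9 CPM in WT and 137 ± 12.1 CPM in zQ175:CK2a'(+/-) mice (SD, n = 5), a log2 difference of -0.18 (SE 0.09, edgeR adjusted p = 0.576). These counts do not separate the reads of the expanded allele from those of the normal one.

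A neighbour of Csnk2a2 differed the other way. The long noncoding RNA gene 4933406B17Rik (ENSMUSG00000110427, chr8:95496430-95503718, plus strand) lies 6391 bases beyond Csnk2a2 and is read in the opposite direction. Its level was 0.548, 0.112, 0.272, 0 and 0.278 CPM in the WT mice and 1.29, 3.59, 2.57, 2.60 and 2.52 CPM in the zQ175:CK2a'(+/-) mice, so that the lowest zQ175:CK2a'(+/-) mouse lay above the highest WT mouse. The log2 difference was 3.35 (SE 0.63). It passed in DESeq2 (adjusted p = 4.1e-06) and missed the threshold in edgeR (adjusted p = 0.118). The 3 CK2a'(+/-) mice, which carry no zQ175 allele, were at 3.18, 4.20 and 2.94 CPM, and there 4933406B17Rik passed against WT in edgeR with a log2 difference of 3.81 (adjusted p = 0.0872).

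The sequences just upstream of the start sites are shown for the genes of these results that had an entry, since Csnk2a2 and 4933406B17Rik start near each other on opposite strands and Myh7b (below) was another gene that passed. Each is the 250 bases before the RefSeq start site (GRCm38.p6), 5′ to 3′ on the strand of the gene, and capitals mark GC boxes (GGGCGG on either strand), the element that the Sp1 family binds. Csnk2a2 is from chr8:95488821-95489070 (minus strand), 4933406B17Rik from chr8:95496164-95496413 (plus strand) and Myh7b from chr2:155610993-155611242 (plus strand).
Csnk2a2: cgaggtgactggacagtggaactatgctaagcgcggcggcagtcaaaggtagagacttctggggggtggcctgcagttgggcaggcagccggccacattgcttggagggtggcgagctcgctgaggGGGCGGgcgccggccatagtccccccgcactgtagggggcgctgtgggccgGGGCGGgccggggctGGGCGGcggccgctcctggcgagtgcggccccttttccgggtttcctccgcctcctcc
4933406B17Rik: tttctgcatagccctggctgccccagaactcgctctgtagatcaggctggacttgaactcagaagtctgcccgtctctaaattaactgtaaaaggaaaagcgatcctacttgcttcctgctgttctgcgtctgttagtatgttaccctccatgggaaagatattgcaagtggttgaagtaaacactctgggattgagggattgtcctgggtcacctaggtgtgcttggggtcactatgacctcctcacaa
Myh7b: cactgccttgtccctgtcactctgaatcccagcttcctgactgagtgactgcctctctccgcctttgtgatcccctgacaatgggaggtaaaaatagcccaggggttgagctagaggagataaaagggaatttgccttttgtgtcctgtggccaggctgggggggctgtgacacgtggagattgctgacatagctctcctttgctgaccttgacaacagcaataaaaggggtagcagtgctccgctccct
The window of Csnk2a2 held 3 GC boxes and was 71.6% G and C. That of 4933406B17Rik held none and was 48.4% G and C, and that of Myh7b held none and was 53.6% G and C. Of 32851 RefSeq promoter windows of this length, 32.7% held a GC box. Neither TATAAA (in 12.4% of all windows) nor the cAMP response element TGACGTCA (in 1.55%), searched on both strands, was found in any of the 3 windows. The RefSeq start sites of Csnk2a2 and 4933406B17Rik lie 7594 bases apart, and the start of Csnk2a2 in RefSeq lies inside the gene as the count table's annotation draws it.

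Over the 66 tested genes within 2 Mb of Csnk2a2, 46 were lower in zQ175:CK2a'(+/-) mice (51.5% of all genes) and the median log2 difference was -0.10, against -0.01 over all genes tested. At an unadjusted edgeR p under 0.05, 3 were higher and 4 were lower (4.27% and 4.85% of all genes). Besides 4933406B17Rik, only Cpne2, a copine that binds membranes in a calcium-dependent way, passed in DESeq2 among these neighbours (0.725% of all genes passed). Cpne2 was at 26.7, 18.9, 22.4, 17.3 and 20.7 CPM in WT and at 14.5, 20.03, 9.61, 12.4 and 12.6 CPM in zQ175:CK2a'(+/-) mice, with replicate 2 of the latter inside the WT range (log2 difference -0.62, SE 0.16, DESeq2 adjusted p = 0.0581). Nlrc5, a regulator of MHC class I genes, was at 0.838 to 1.84 CPM in WT and 2.16 to 3.59 CPM in zQ175:CK2a'(+/-) mice and passed in neither tool (log2 difference 1.05, DESeq2 adjusted p = 0.142). The predicted gene Gm45853, which lies within Csnk2a2 on the same strand, differed by -0.60, and reads of Csnk2a2 and Gm45853 can be assigned to either.

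Across the genome, few genes passed. In edgeR 3 of 20914 genes passed (0.0143%), Csnk2a2, Gabrd and Myh7b, all of them lower in zQ175:CK2a'(+/-) mice. At an unadjusted edgeR p under 0.05 there were 1909 genes (9.13%), 894 higher (4.27%) and 1015 lower (4.85%). DESeq2 with default settings, the tool named in the methods, passed 123 of 16971 genes (0.725%), of which 52 were higher (0.306%) and 71 lower (0.418%). The 3 edgeR genes were among the 123, and no gene of the 123 had an edgeR adjusted p above 0.330. In 72 of the 123 genes the 5 and 5 mice did not overlap, whereas 384 of all 20914 genes (1.84%) did not overlap. Most differences were moderate, as 19 of the 123 genes lay below -1 and 5 above 1 on the log2 scale.

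**Figure D1:**
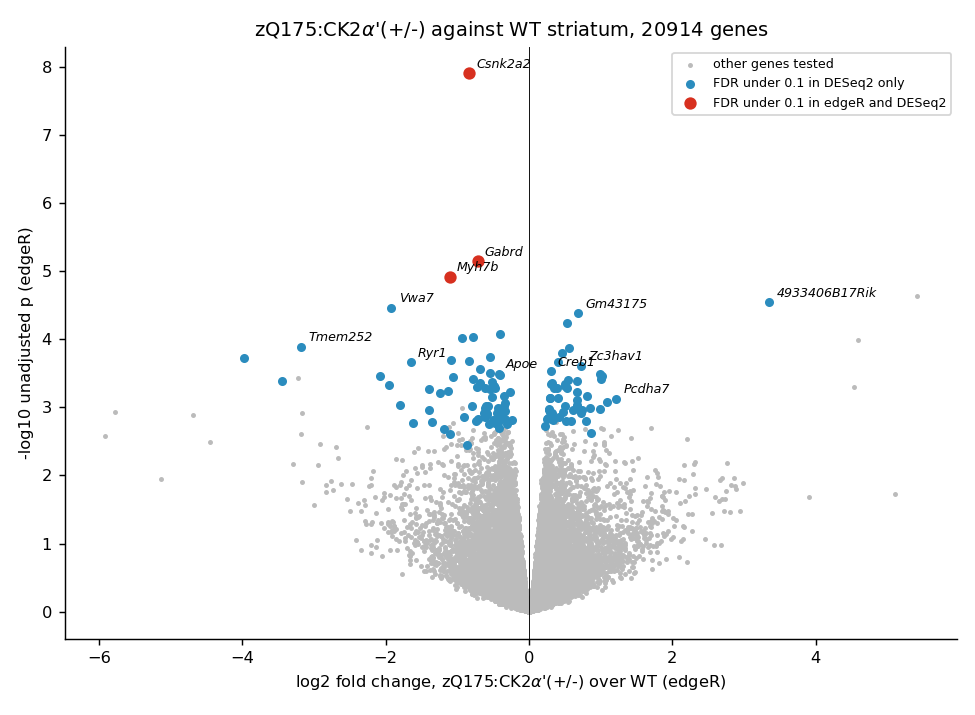
Log2 fold change of zQ175:CK2a'(+/-) over WT (x axis) against -log10 of the unadjusted edgeR p (y axis) for the 20914 genes tested. The 3 genes that passed in edgeR are marked apart from the genes that passed in DESeq2 alone, and 51.5% of all points lie below 0 on the x axis.

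Gabrd encodes the delta subunit of GABA-A receptors, which sits outside synapses and carries tonic inhibition. It was at 53.4, 54.5, 55.8, 33.0 and 45.1 CPM in WT and at 31.3, 26.9, 25.6, 32.7 and 30.4 CPM in zQ175:CK2a'(+/-) mice. WT replicate 4 lay just above the highest zQ175:CK2a'(+/-) mouse, and the groups did not overlap. Gabrd fell by 0.72 on the log2 scale (SE 0.12, edgeR adjusted p = 0.0752). In zQ175 mice with both CK2a' alleles it fell by 0.64 against the same WT mice (edgeR adjusted p = 0.0469). The count of calls between zQ175 and WT mice fell to 0 with single mice left out, as given below. Without WT replicates 4 and 5 the Gabrd difference was -0.89 and passed, and without the 3 libraries of high choroid plexus signal it was -0.55 and did not pass (edgeR adjusted p = 0.999).

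Myh7b, a myosin heavy chain of slow muscle that neurons also express, was at 12.5, 8.15, 9.80, 7.73 and 9.45 CPM in WT and at 4.28, 4.74, 6.06, 4.25 and 2.82 CPM in zQ175:CK2a'(+/-) mice. All 5 zQ175:CK2a'(+/-) mice were below all WT mice. Myh7b fell by 1.10 (SE 0.19, edgeR adjusted p = 0.0837). In zQ175 mice the difference from WT was -0.48 and did not pass (edgeR adjusted p = 0.258), and against CK2a'(+/-) mice it fell in zQ175:CK2a'(+/-) mice by 1.31 (edgeR adjusted p = 0.0157). The count of calls in the comparison with CK2a'(+/-) mice rested on single mice, as given below. Against zQ175 mice the difference of Myh7b was -0.62 and did not pass (edgeR adjusted p = 0.585). Of 8 myosin heavy chain genes tested 4 were lower (51.5% of all genes), with a median of -0.04, and Myh7b was the 1 that passed (0.0143% of all genes in edgeR). At an unadjusted edgeR p under 0.05, 3 were lower and none was higher (4.85% and 4.27% of all genes). Besides Myh7b these were Myh3 (-1.72) and Myh7 (-0.60). Myh7b overlaps Trpc4ap on the other strand by 37 bases. Both calls rested on single mice. That of Gabrd was lost without WT replicate 1 or 3, any 1 zQ175:CK2a'(+/-) mouse, zQ175 replicate 5 or CK2a'(+/-) replicate 2, with differences of -0.76 to -0.65 and edgeR adjusted p from 0.106 to 0.225. That of Myh7b was lost without WT replicate 1, 3 or 5, zQ175:CK2a'(+/-) replicate 1, 2, 4 or 5, zQ175 replicate 5 or any 1 CK2a'(+/-) mouse, with differences of -1.13 to -0.98 and edgeR adjusted p from 0.101 to 0.254. With the replicate number as a block neither passed (edgeR adjusted p = 0.218 for Gabrd and 0.194 for Myh7b).

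**Figure D2:**
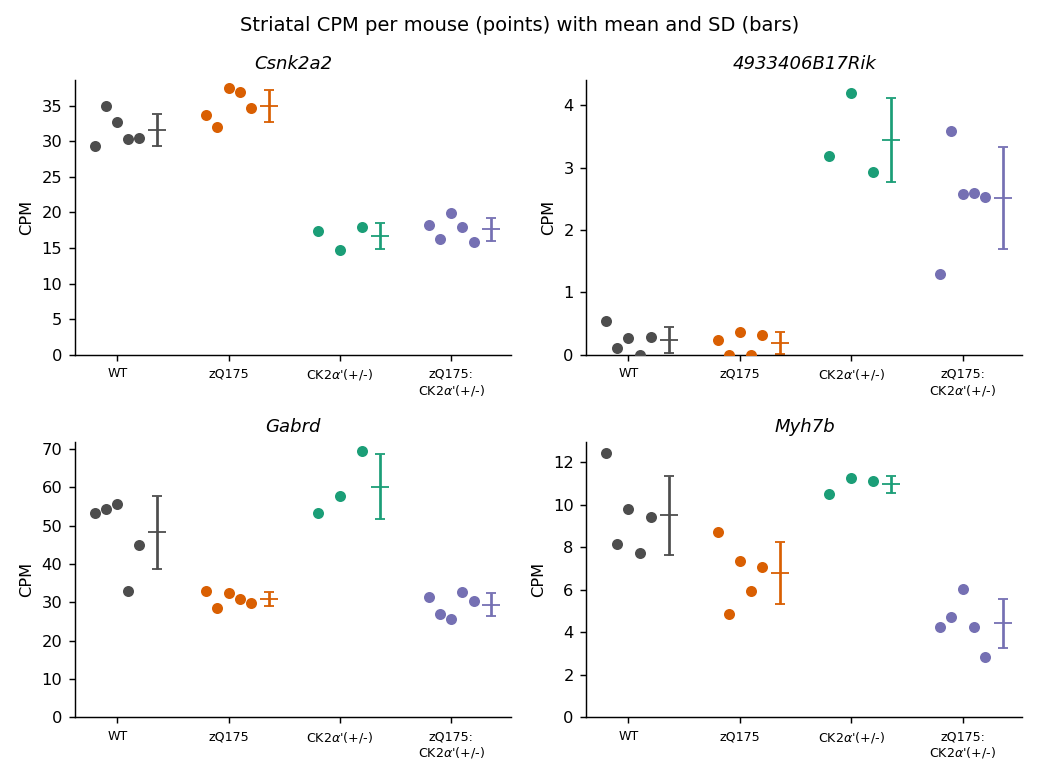
CPM of Csnk2a2, 4933406B17Rik, Gabrd and Myh7b in each mouse of the 4 genotypes (points), with the mean and SD of each group (bars). Csnk2a2 lies between 15.8 and 19.9 CPM in zQ175:CK2a'(+/-) mice and between 29.4 and 34.96 CPM in WT mice, and 4933406B17Rik is above 1 CPM in every mouse with 1 CK2a' allele.

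Several of the lower genes that passed in DESeq2 without overlap between the mice were of low level. Tmem252, a transmembrane protein gene, was at 0.897, 0.614, 1.57, 2.98 and 4.59 CPM in WT and at 0.169, 0.359, 0, 0.265 and 0.361 CPM in zQ175:CK2a'(+/-) mice (log2 difference -3.18, SE 0.68, DESeq2 adjusted p = 0.00352). Xrra1 and BC049352 differed by -2.08 and -1.96, and no zQ175:CK2a'(+/-) mouse was above 1.29 CPM in either. Exons of Xrra1 overlap Spcs2 on the other strand, so part of its reads may belong to Spcs2. Vwa7, a von Willebrand domain gene, was at 4.34, 4.41, 4.22, 1.47 and 1.62 CPM in WT and 1.24, 0.574, 0.612, 0.902 and 0.841 CPM in zQ175:CK2a'(+/-) mice. WT replicates 4 and 5 were the lowest WT mice (log2 difference -1.92, SE 0.37, DESeq2 adjusted p = 0.00239). Ccdc155, which links telomeres to the cytoskeleton in meiotic cells, differed by -1.62 (DESeq2 adjusted p = 0.0607).

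Genes of moderate level passed in DESeq2 too. St8sia2, a polysialyltransferase that modifies the adhesion molecule NCAM, was at 7.57 ± 2.11 CPM in WT and 3.44 ± 0.536 CPM in zQ175:CK2a'(+/-) mice (SD, n = 5), a log2 difference of -1.13. S100a10, the p11 protein that carries serotonin receptors and channels to the membrane, was at 11.3, 9.89, 15.4, 7.51 and 7.41 CPM in WT and 4.84, 3.30, 4.59, 6.05 and 5.23 CPM in zQ175:CK2a'(+/-) mice. Its groups did not overlap (log2 difference -1.09, SE 0.24, DESeq2 adjusted p = 0.0161). Tpm2, a tropomyosin of actin filaments, differed by -0.93 (DESeq2 adjusted p = 0.0088), and Rwdd2a by -0.91 (DESeq2 adjusted p = 0.0721). Fbln2, an extracellular matrix fibulin, was at 5.03, 3.80, 3.54, 4.13 and 3.61 CPM in WT and 2.03, 2.94, 2.33, 2.18 and 1.80 CPM in zQ175:CK2a'(+/-) mice. Fbln2 differed by -0.84 here (DESeq2 adjusted p = 0.0281), while its difference between zQ175 and the same WT mice was 0.18 (edgeR adjusted p = 0.706).

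The higher genes that passed in DESeq2 included unnamed transcripts. Predicted or Riken names were carried by 18 of the 52 higher genes (34.6%) and 7 of the 71 lower genes (9.86%), beside 20.5% of the 16971 genes that DESeq2 tested. Zc3hav1, an antiviral zinc finger protein that binds RNA, was at 8.72, 7.48, 8.65, 8.66 and 8.20 CPM in WT and 12.8, 14.8, 14.3, 12.9 and 14.1 CPM in zQ175:CK2a'(+/-) mice, with little spread in either group. Its log2 difference was 0.72 (SE 0.16, DESeq2 adjusted p = 0.0192), and in zQ175 mice it differed from WT by 0.29. Exph5, a Rab27 effector in vesicle transport, was at 12.7 to 22.01 CPM in WT and 25.8 to 35.4 CPM in zQ175:CK2a'(+/-) mice (log2 difference 0.67, DESeq2 adjusted p = 0.0338).

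Gm43175, a predicted gene, was at 13.2, 20.7, 17.8, 19.6 and 16.5 CPM in WT and 31.1, 31.5, 27.2, 24.8 and 26.9 CPM in zQ175:CK2a'(+/-) mice (log2 difference 0.69, SE 0.13, DESeq2 adjusted p = 0.00271). Gm37423, Gm37485, Gm37621, Gm48114, Gm42725, B230362B09Rik and Gm15681 differed by 0.67 to 1.08 and passed in DESeq2 without overlap. Of the higher unnamed transcripts that passed, 10 lie inside a longer gene on the same strand, among them Gm37423 in Dennd1b, Gm37485 in Dis3l2, Gm48114 in Gramd1b, Gm42725 in Smim14, B230362B09Rik in Ank and Gm15681 in Cdh8. The log2 differences of the 10 host genes ran from -0.23 to 0.45 with a median of 0.08. At an unadjusted edgeR p under 0.05, 3 of these hosts were higher and none was lower (4.27% and 4.85% of all genes). Reads of these transcripts cannot be told apart from unspliced RNA of their hosts in a gene count. Gm37621 overlaps Ppp2r3a on the other strand.

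Exon length moved with the direction of the calls. The median summed exon length was 5480 bases in the 52 higher genes and 3081 bases in the 71 lower genes, against 3442 bases over all genes tested. Over all tested genes, the median log2 difference was -0.10 for those under 1000 bases, -0.03 for those of 1000 to 5000 bases and 0.03 for those of at least 5000 bases. In zQ175 against the same WT mice these medians were -0.09, -0.04 and 0.06, and in CK2a'(+/-) mice -0.06, -0.02 and 0.02. The part of length in the calls was not tested.

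Genes of the striatal projection neurons were mostly lower, with WT mice that varied widely. Of the 52 tested genes on 3 lists, for both, the direct and the indirect pathway, 45 were lower in zQ175:CK2a'(+/-) mice with a median log2 difference of -0.30, against 51.5% lower and a median of -0.01 over all genes tested. None passed in edgeR, 17 were lower and 1 was higher at an unadjusted edgeR p under 0.05 (4.85% and 4.27% of all genes), and 3 were lower and passed in DESeq2 (0.418% of all genes). The lists' medians were -0.56 for the 8 indirect pathway genes, -0.12 for the 9 direct pathway genes and -0.30 for the 35 shared genes. These sizes rested on single mice. Without WT replicate 2 the median of the 52 genes was -0.12, that of the indirect pathway genes -0.30 and that of the shared genes -0.11. The direct pathway median was -0.22 without WT replicate 1, -0.18 without WT replicate 5 and -0.20 without zQ175:CK2a'(+/-) replicate 1. The indirect pathway list had the lowest of the 3 medians with each mouse left out in turn. In bulk tissue, fewer cells of a type and less RNA per cell cannot be told apart.

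On the indirect pathway, Adora2a was at 134, 174, 120, 48.9 and 62.0 CPM in WT and 73.6, 48.0, 53.9, 58.3 and 48.0 CPM in zQ175:CK2a'(+/-) mice. WT replicates 4 and 5 lay within the zQ175:CK2a'(+/-) range and the other 3 WT mice above it (log2 difference -0.93, SE 0.24, edgeR adjusted p = 0.258). Penk was at 917, 1214, 795, 496 and 491 CPM in WT and 582, 474, 441, 520 and 360 CPM in zQ175:CK2a'(+/-) mice, again with the same pair of WT mice inside the other group (log2 difference -0.72, edgeR adjusted p = 0.348). Drd2 differed by -0.39 and Gpr6, an orphan receptor of these neurons, by -0.77, and without WT replicate 2, the highest mouse for Adora2a and Penk, by -0.11 and -0.48.

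On the direct pathway, Drd1 was at 116, 174, 83.1, 68.8 and 60.5 CPM in WT and 75.1, 71.9, 70.6, 79.99 and 59.98 CPM in zQ175:CK2a'(+/-) mice (log2 difference -0.49, SE 0.23, edgeR adjusted p = 0.526). Without WT replicate 2, the highest mouse, the difference was -0.21. Pdyn, the dynorphin precursor, was at 36.9 to 71.5 CPM in WT and 19.5 to 38.6 CPM in zQ175:CK2a'(+/-) mice, a log2 difference of -0.79 (edgeR adjusted p = 0.329). The muscarinic receptor Chrm4 differed by -0.59 and the substance P precursor Tac1 by -0.30. None of these passed in either tool.

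Of the genes shared by both pathways, Ryr1, an intracellular calcium release channel, was at 81.4, 153, 130, 40.2 and 25.5 CPM in WT and 39.3, 19.7, 23.8, 33.7 and 19.95 CPM in zQ175:CK2a'(+/-) mice. Its groups overlapped through WT replicate 5 (log2 difference -1.65, SE 0.37, DESeq2 adjusted p = 0.0372). Ido1, which breaks down tryptophan, was at 14.5, 11.2, 8.24, 9.59 and 8.11 CPM in WT and 6.30, 7.68, 4.84, 7.11 and 4.99 CPM in zQ175:CK2a'(+/-) mice without overlap (log2 difference -0.74, DESeq2 adjusted p = 0.0843). Rgs14, a regulator of G protein signalling, differed by -0.86 (DESeq2 adjusted p = 0.0991). Scn4b, a sodium channel beta subunit, was at 492, 687, 478, 239 and 210 CPM in WT and 278, 232, 239, 268 and 214 CPM in zQ175:CK2a'(+/-) mice and passed in neither tool (log2 difference -0.78, edgeR adjusted p = 0.318).

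Ppp1r1b, which encodes the dopamine-regulated phosphoprotein DARPP-32, was at 1076, 1248, 1019, 639 and 719 CPM in WT and 740, 709, 596, 810 and 532 CPM in zQ175:CK2a'(+/-) mice (log2 difference -0.47, edgeR adjusted p = 0.495). The calmodulin-binding proteins Pcp4 and Pcp4l1 did not overlap between the groups. Pcp4 was at 164 to 212 CPM in WT and 122 to 163 CPM in zQ175:CK2a'(+/-) mice (log2 difference -0.43), and Pcp4l1 at 216 to 298 CPM and 203 to 209 CPM (log2 difference -0.28), both with edgeR adjusted p values of 0.329 and 0.330. Arpp19, a phosphatase regulator, differed by -0.59 and the GTPase regulator Bcr by -0.35 (-0.22 without WT replicate 2), and neither passed.

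The spread among WT mice can be counted. Of the 52 projection neuron genes, 33 were above all 5 zQ175:CK2a'(+/-) mice in WT replicate 1, 45 in replicate 2 and 27 in replicate 3, but only 6 in replicate 4 and 5 in replicate 5. Without WT replicates 4 and 5 the median of the 52 genes was -0.45, with -0.87 for the indirect pathway, -0.20 for the direct pathway and -0.47 for the shared genes, and 17 of them passed in edgeR, all lower. Over all genes 217 then passed in edgeR, 78 higher and 139 lower, and 442 in DESeq2. These 2 mice were set apart on the very genes whose counts then rise, after the data were seen, so the counts without them are a description and no support for a difference. Without the 3 libraries of high choroid plexus signal, which leaves WT replicates 2, 4 and 5, 1 gene passed in edgeR and 7 in DESeq2, and the medians were -0.29 for the indirect pathway, -0.25 for the direct pathway and -0.26 for the shared genes. The part of the choroid plexus signal in these counts was not tested.

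**Figure D3:**
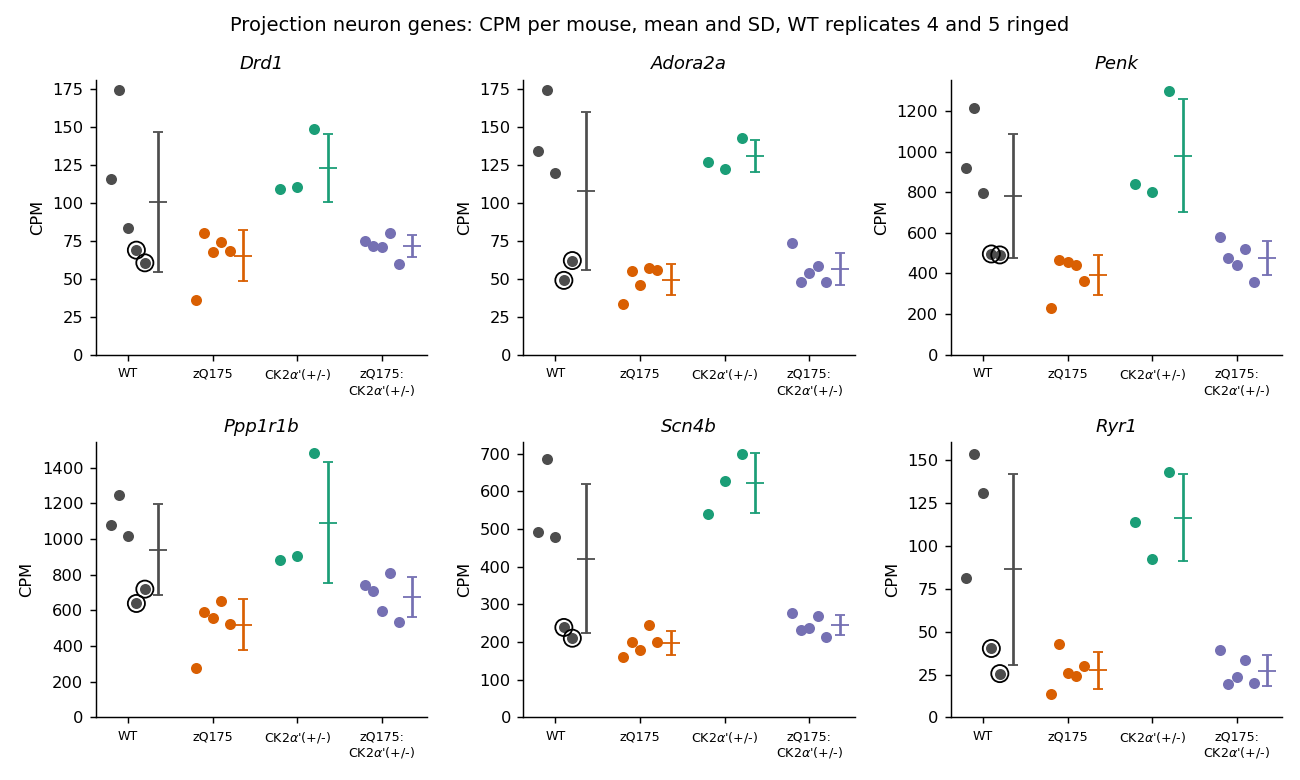
CPM of Drd1, Adora2a, Penk, Ppp1r1b, Scn4b and Ryr1 in each mouse of the 4 genotypes, with group mean and SD and with WT replicates 4 and 5 ringed. The ringed Adora2a values, 48.9 and 62.0 CPM, fall in the range of zQ175:CK2a'(+/-) mice, 48.0 to 73.6 CPM, and the other WT mice lie at 120 CPM and above.

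Outside the projection neuron genes, lists of synaptic genes had medians near that of all genes. Of 15 GABA-A receptor subunits 11 were lower (51.5% of all genes) with a median of -0.05, and Gabrd was the 1 that passed (0.0143% of all genes in edgeR). The subunit Gabrb2 differed by 0.17. Gabrq, the theta subunit, was at 12.7, 0.559, 3.68, 1.91 and 1.67 CPM in WT and 1.58, 1.22, 0.796, 1.96 and 2.28 CPM in zQ175:CK2a'(+/-) mice. Its difference of -1.38 did not pass (edgeR adjusted p = 0.504) and was -0.32 without WT replicate 1, the highest mouse. Among the 9 genes of GABA synthesis, transport and GABA-B receptors the median was -0.02, and the transporter Slc6a13, at 1.10 to 2.25 CPM in WT and 0.169 to 0.955 CPM in zQ175:CK2a'(+/-) mice, differed by -1.33 without passing (DESeq2 adjusted p = 0.161).

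For excitatory synapses, 16 AMPA, NMDA and kainate receptor subunits had a median of -0.03, 7 metabotropic glutamate receptors one of -0.08 and 15 scaffolds of the postsynaptic density one of -0.01. No member of these 3 lists passed in edgeR or DESeq2 or had an unadjusted edgeR p under 0.05. Dlg4, which encodes the scaffold PSD-95, was at 473, 567, 472, 430 and 395 CPM in WT and 434, 383, 406, 479 and 406 CPM in zQ175:CK2a'(+/-) mice (log2 difference -0.15, SE 0.09). Grin2a, an NMDA receptor subunit, differed by 0.23, and the metabotropic receptor Grm2, at 0.888 to 1.97 CPM in WT and 0.144 to 1.33 CPM in zQ175:CK2a'(+/-) mice, by -0.97 (edgeR adjusted p = 0.745).

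Among 25 sodium and calcium channel genes the median was 0.00, and 1 was higher and passed in DESeq2 (0.306% of all genes). At an unadjusted edgeR p under 0.05, 2 were higher and 1 was lower (4.27% and 4.85% of all genes). Cacna1a, the pore of P/Q-type calcium channels, was at 195, 216, 222, 220 and 204 CPM in WT and 254, 219, 258, 273 and 287 CPM in zQ175:CK2a'(+/-) mice, and 1 zQ175:CK2a'(+/-) mouse lay inside the WT range (log2 difference 0.29, SE 0.08, DESeq2 adjusted p = 0.0679). Cacna2d1, an auxiliary subunit, differed by 0.25 and did not pass. The median of 25 potassium channel genes was -0.03, and none passed in either tool. The lowest unadjusted p among these was that of Kcnip2, a Kv4 channel partner that differed by -0.40. Of 8 genes for huntingtin and its partners, with a median of -0.24 that was -0.11 without WT replicate 2, none passed in either tool. At an unadjusted edgeR p under 0.05, 2 were lower (4.85% of all genes). Hap1, an adaptor of vesicle transport, differed by -0.50 (-0.29 without WT replicate 1) and Sh3gl3, an endophilin, by -0.31. Without the libraries of high choroid plexus signal none of the 8 was at that p, and the median was -0.12. Hap1 and Sh3gl3 then differed by -0.17 and -0.25. Over all genes 481 were lower at that p in this smaller set of mice, against 1015 with all mice.

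The clustered protocadherins, cell surface molecules by which neurons tell their own branches from others, were looked at after the values were seen. Of 57 tested, 47 were higher and the median was 0.24, 15 were higher and none was lower at an unadjusted edgeR p under 0.05 (4.27% of all genes were higher at that p), and 6 passed in DESeq2 (0.306% of all genes higher) while none passed in edgeR. The median of the 57 was 0.16 without WT replicate 1 and 0.10 without the 3 libraries of high choroid plexus signal. Pcdhb5 was at 3.24, 3.91, 2.11, 1.91 and 4.54 CPM in WT and 5.07, 6.68, 8.70, 5.94 and 4.87 CPM in zQ175:CK2a'(+/-) mice without overlap (log2 difference 0.99, SE 0.26, DESeq2 adjusted p = 0.0561). Pcdhb20, Pcdhb3 and Pcdhb21 differed by 0.68, 0.74 and 0.87, and Pcdha7 and Pcdhga4 by 1.22 and 0.52. In zQ175 mice the median of the 57 was 0.15 and none passed in edgeR. Alpha and gamma protocadherins share their last exons and beta protocadherins are close copies, so the split of reads among members is uncertain.

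Of 9 genes of the CREB family and its coactivators, a list also picked with the values known, the median was 0.14 with 6 higher and 3 lower, and 2 were higher and passed in DESeq2 (0.306% of all genes). Creb1, the transcription factor that responds to cAMP and calcium, was at 50.2, 49.1, 49.2, 56.1 and 47.4 CPM in WT and 62.4, 62.3, 57.3, 64.9 and 63.6 CPM in zQ175:CK2a'(+/-) mice, with all of the latter above all WT mice (log2 difference 0.30, SE 0.07, DESeq2 adjusted p = 0.0281). Its coactivator Crebbp was at 255, 303, 261, 280 and 277 CPM in WT and 324, 313, 318, 314 and 338 CPM in zQ175:CK2a'(+/-) mice (log2 difference 0.22, SE 0.06, DESeq2 adjusted p = 0.0552). The groups did not overlap in either gene. In zQ175 mice Creb1 also differed from the same WT mice by 0.30, where it passed in edgeR (adjusted p = 0.0613). All calls of that comparison were lost with single mice left out, as given below.

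Messenger RNAs of cytosolic ribosomal proteins, again a list chosen after the values were seen, were lower together. Of 89 tested, 85 were lower with a median of -0.29, against 51.5% lower over all genes. At an unadjusted edgeR p under 0.05, 51 were lower and none was higher (4.85% of all genes were lower at that p), and 6 passed in DESeq2 (0.418% of all genes lower) while none passed in edgeR. Rpl14 was at 57.6, 40.9, 61.8, 58.7 and 61.2 CPM in WT and 37.2, 43.2, 38.4, 44.1 and 32.2 CPM in zQ175:CK2a'(+/-) mice. WT replicate 2 alone lay inside the other group (log2 difference -0.52, SE 0.13, DESeq2 adjusted p = 0.046). Rps27 and Rps24 differed by -0.59 and -0.43, and Rpl9, Rpl19 and Rpl31 by -0.50, -0.48 and -0.42. Summed over the list the level ran from 4542 to 6102 CPM in WT and from 4089 to 4842 CPM in zQ175:CK2a'(+/-) mice. Ribosomal protein genes have many processed pseudogenes, among which reads of low mapping quality had been removed. In zQ175 mice the median of the 89 was -0.37 and 14 passed in edgeR (1.1% of all genes, a count that rested on single mice, as given below). In CK2a'(+/-) mice, against the same WT mice, the median was -0.15 and none passed in edgeR.

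Glial genes differed by list. Of 14 genes of mature oligodendrocytes and myelin 13 were lower with a median of -0.16, and 5 were lower at an unadjusted edgeR p under 0.05 (4.85% of all genes) while none passed in edgeR or DESeq2. Leaving out single mice moved this median from -0.26 (without WT replicate 2) to -0.09 (without WT replicate 3). Cldn11 and Mal, which sit in the myelin sheath, differed by -0.39 each. In zQ175 mice the median of these 14 genes was -0.43 against the same WT mice and 7 passed in edgeR (1.1% of all genes), in a comparison whose count of calls fell to 0 with single mice left out, as given below. The zinc enzyme carbonic anhydrase Car2, which oligodendrocytes express, was at 142, 143, 192, 129 and 123 CPM in WT and 107, 102, 105, 86.9 and 118 CPM in zQ175:CK2a'(+/-) mice without overlap (log2 difference -0.49, SE 0.12, DESeq2 adjusted p = 0.0372). Car2 was named after its values were seen, as were Il33, Apoe and Fth1. Il33, an alarmin of glial nuclei, differed by -0.62 (DESeq2 adjusted p = 0.0338).

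Astrocyte markers had a median of -0.07, with 10 of 14 lower (51.5% of all genes), 4 of them at an unadjusted edgeR p under 0.05 (4.85% of all genes), and none passed in either tool. Without the libraries of high choroid plexus signal none of the 14 astrocyte, 14 myelin or 16 clock genes was at an unadjusted edgeR p under 0.05. Their medians were then -0.10, -0.11 and -0.09. Over all genes 481 were lower at that p in this smaller set of mice, against 1015 with all mice. Glul, the glutamine synthetase that clears glutamate, differed by -0.33, as did the transcription factor Sox9. Apoe, the lipid carrier made by astrocytes, was at 1834, 1408, 1912, 1479 and 1584 CPM in WT and 1262, 1402, 1157, 1152 and 1157 CPM in zQ175:CK2a'(+/-) mice, a difference of -0.42 on the log2 scale without overlap (DESeq2 adjusted p = 0.0247). The ferritin heavy chain Fth1 differed by -0.31 (DESeq2 adjusted p = 0.0991).

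Lists of reactive astrocytes had medians of 0.05 for 11 pan-reactive, 0.11 for 11 A1 and 0.12 for 8 A2 genes, and S100a10, described above and counted there as an A2 gene, was the only member of the 3 lists that passed in DESeq2. The A1 and A2 medians took either sign when single mice were left out, from -0.13 to 0.14 and from -0.0905 to 0.28. Serpina3n, a protease inhibitor of reactive astrocytes, was at 5.38, 8.71, 10.2, 12.5 and 12.7 CPM in WT and 26.9, 14.1, 15.8, 7.86 and 21.1 CPM in zQ175:CK2a'(+/-) mice and did not pass (log2 difference 0.79, SE 0.44). The 14 microglia markers had a median of 0.01 and 12 complement genes one of 0.04, and none passed or had an unadjusted edgeR p under 0.05. Itgam, the microglial integrin CD11b, was at 7.35 to 8.62 CPM in WT and 9.01 to 12.0 CPM in zQ175:CK2a'(+/-) mice, without overlap, and differed by 0.37 (edgeR adjusted p = 0.547). The 17 interferon response genes had a median of 0.07, and none passed in either tool. Among them the MHC class I gene H2-D1 differed by 0.45.

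Of 16 circadian clock genes 13 were lower with a median of -0.18 (51.5% of all genes were lower), 6 of them at an unadjusted edgeR p under 0.05 (4.85% of all genes), and 1 was lower and passed in DESeq2 (0.418% of all genes). Dbp, a clock output factor, was at 125, 122, 112, 64.7 and 65.3 CPM in WT and 75.0, 53.9, 62.3, 72.7 and 62.1 CPM in zQ175:CK2a'(+/-) mice. WT replicates 4 and 5 lay inside the other group, as they did for the projection neuron genes (log2 difference -0.58, SE 0.16, DESeq2 adjusted p = 0.06). Ciart and Tef differed by -0.62 and -0.31. Without WT replicates 4 and 5 the median of the 16 genes was -0.33, and without the libraries of high choroid plexus signal it was -0.09. Over the same WT mice the clock genes had a median of 0.29 in CK2a'(+/-) mice, where none passed in edgeR, and of -0.08 in zQ175 mice. Between zQ175:CK2a'(+/-) and CK2a'(+/-) mice 8 of the 16 passed in edgeR, against 0.593% of all genes, Dbp among them with a fall of 1.08 on the log2 scale (adjusted p = 0.0152). The count of calls in that comparison fell from 124 to 6 with a mouse left out, and its groups differed in sex ratio, as given below.

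Immediate early genes (19 tested, median -0.02), chaperones and heat shock factors (21 tested, median -0.05) and genes of cholesterol synthesis (22 tested, median -0.08) held no gene that passed in edgeR or DESeq2, with 2, 1 and 2 genes at an unadjusted edgeR p under 0.05, near the 9.13% of all genes or below it. The activity-dependent factor Npas4 was at 3.52 to 8.17 CPM in WT and 6.25 to 10.8 CPM in zQ175:CK2a'(+/-) mice (log2 difference 0.62, edgeR adjusted p = 0.422). Nr4a2, an orphan nuclear receptor induced by activity, was at 6.33, 5.70, 2.31, 9.06 and 2.64 CPM in WT and 2.76, 4.52, 1.22, 1.27 and 3.91 CPM in zQ175:CK2a'(+/-) mice and did not pass (log2 difference -0.95). The 8 neurotrophin genes and 13 mitochondrially encoded genes had medians of -0.03 and 0.09, and no member passed or had an unadjusted edgeR p under 0.05.

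Markers of cells and regions that a striatal dissection could include were looked at alongside. Medians were -0.07 for 14 endothelial and pericyte genes, -0.18 for 15 interneuron genes, -0.03 for 10 oligodendrocyte precursor genes, -0.07 for 16 cortical, -0.17 for 12 thalamic, -0.06 for 8 hippocampal and -0.04 for 10 medial septum and pallidal genes. With a mouse left out the thalamic median ran from -0.53 to 0.0558, the cortical from -0.24 to 0.00274, the hippocampal from -0.20 to 0.0966 and the medial septum and pallidal from -0.15 to 0.0173, and the interneuron median was 0.01 without the libraries of high choroid plexus signal. None of these genes passed in edgeR or DESeq2, and 5 had an unadjusted edgeR p under 0.05, a share below the 9.13% of all genes. Summed thalamic markers ran from 482 to 1122 CPM in WT and from 466 to 1242 CPM in zQ175:CK2a'(+/-) mice, and summed cortical markers from 319 to 398 CPM and from 353 to 423 CPM. The 12 choroid plexus markers had a median of 0.01 and none passed, but this value rested on the libraries of high signal. It was -2.96 without zQ175:CK2a'(+/-) replicate 2, 0.68 without WT replicate 1 and 0.58 without WT replicate 3.

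**Figure D4:**
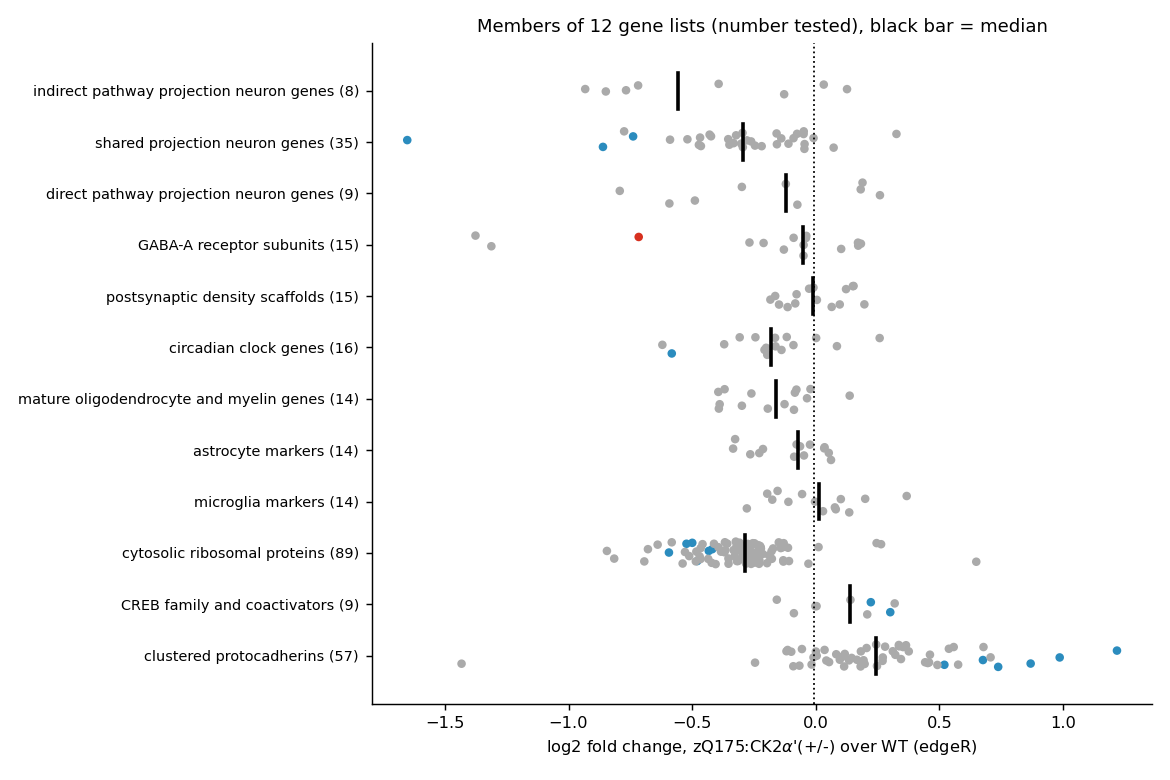
Log2 fold change of zQ175:CK2a'(+/-) over WT for every tested member (points) of 12 gene lists, with the median of each list (black bar) and of all genes (dotted line). Genes that passed in DESeq2 are blue and those that passed in edgeR red, and the lists for ribosomal proteins and the indirect pathway have medians of -0.29 and -0.56.

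The other genotypes put these values in context, and they share the WT mice, so their differences from WT are not independent of those above. Against WT, 230 genes passed in edgeR in zQ175 mice (1.1%) and 3 in CK2a'(+/-) mice (0.0143%), where DESeq2 passed 855 (5.26%) and 11 (0.0293%). The count of 230 rested on single mice, since it was 0 without WT replicate 3 or zQ175 replicate 5, 10 without WT replicate 1, 77 without zQ175 replicate 1, 133 to 153 without zQ175 replicate 3, CK2a'(+/-) replicate 2 or zQ175:CK2a'(+/-) replicate 1 or 3, and 587 without WT replicate 2. It was also 0 with only the 2 groups compared. The count of 3 in CK2a'(+/-) mice ran from 1, without any of the 3, to 9 without WT replicate 2. For the 52 projection neuron genes the median was -0.44 in zQ175 and 0.21 in CK2a'(+/-) mice, beside -0.30 in zQ175:CK2a'(+/-) mice. Scn4b fell in zQ175 mice by 1.10 (edgeR adjusted p = 0.0469), and its difference in CK2a'(+/-) mice was 0.56 (edgeR adjusted p = 0.999). Against CK2a'(+/-) mice, Scn4b fell in zQ175:CK2a'(+/-) mice by 1.34 (edgeR adjusted p = 0.0335), and 124 genes passed in that comparison (0.593%), which sets 4 females and 1 male against 1 female and 2 males. That count was 75 with Xist as a covariate and 12 with the replicate number as a block. It was 6, 8 and 48 without CK2a'(+/-) replicates 2, 3 and 1, lay between 28 and 44 without any 1 zQ175:CK2a'(+/-) mouse, and was 221 without WT replicate 2 and 205 without zQ175 replicate 1.

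The 2 zQ175 genotypes, which differ by design in the CK2a' allele but also held 2 and 4 females among their 5 mice, were compared with each other. In edgeR 3 of 20914 genes passed (0.0143%), and DESeq2 passed 39 (0.145%). The edgeR count was 3 with Xist as a covariate, 1 with the replicate number as a block and 51 with no filter on low counts. It was 6 without zQ175 replicate 1 and 1 without zQ175 replicate 3, 4 or 5 or zQ175:CK2a'(+/-) replicate 3 or 4. Csnk2a2 was lower by 0.99 on the log2 scale in zQ175:CK2a'(+/-) than in zQ175 mice (edgeR adjusted p = 1.61e-05) and 4933406B17Rik higher by 3.68 (edgeR adjusted p = 0.0916). Nr4a2 was the third gene. It was at 11.7, 9.97, 13.4, 14.4 and 14.2 CPM in zQ175 mice, above all 5 zQ175:CK2a'(+/-) mice, and fell by 2.23 (edgeR adjusted p = 0.0338). Summed cortical markers ran from 397 to 762 CPM in zQ175 and from 353 to 423 CPM in zQ175:CK2a'(+/-) mice, with a median difference of -0.50 over the list, and their part in the Nr4a2 result was not tested. Of the 123 genes that passed in DESeq2 against WT, 2 passed between the 2 zQ175 genotypes in edgeR, Csnk2a2 and 4933406B17Rik, and 22 had an unadjusted edgeR p under 0.05 there, as did 6.27% of all genes. The same 5 zQ175:CK2a'(+/-) mice had picked the 123 genes, so a share above that of all genes is no support for a difference.

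**Figure D5:**
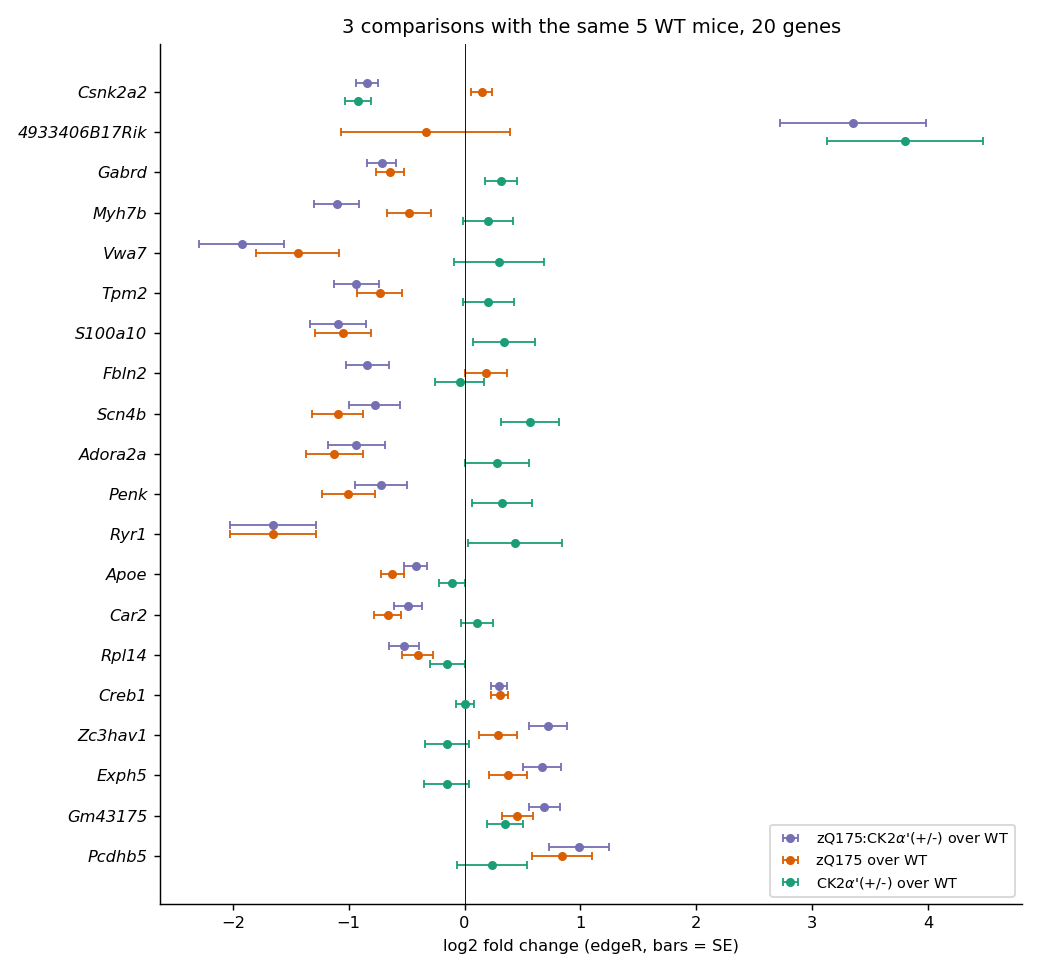
Log2 fold change with SE of 20 genes in zQ175:CK2a'(+/-), zQ175 and CK2a'(+/-) mice, each against the same 5 WT mice. Csnk2a2 and 4933406B17Rik differ from WT in both genotypes with 1 CK2a' allele, and Adora2a, at -0.93 in zQ175:CK2a'(+/-) mice, is at -1.12 in zQ175 and 0.28 in CK2a'(+/-) mice.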

How the data were processed

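Striatal RNA of 18 mice, 1 library per mouse, was sequenced by the authors. In the CHURP pipeline, Trimmomatic cut adapters, HISAT2 2.1.0 placed reads on GRCm38, and Subread 1.6.2 counted them per gene after duplicated mappings, and reads that were unmapped or of mapping quality under 60, had been taken out. The deposited values are raw counts, beside a deposited column of other values, the summed exon length in bases. Whether counting used the strand is not given in the sources used here. Groups came from the labels. Gene symbols were found for 55154 of 55421 identifiers. Nothing says that libraries of a group were prepared apart, so p-values measure the spread between these mice.

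Counts were tested in R 4.3.3 with edgeR 4.0.16 (filterByExpr, TMM, quasi-likelihood test, all 18 libraries, genotype as the only factor) and, as in the methods, with DESeq2 1.42.0 at default settings, limma 3.58.1 being loaded with edgeR. CPM are counts scaled by TMM, and log2 CPM used a prior count of 2. Differential tests were tested on simulated data. Named were the CK2 subunits and Htt, the genes that passed in edgeR, up to 12 per direction that passed in DESeq2 without overlap and with a mean of at least 1 CPM, up to 3 further members of each list besides those that passed, and projection neuron genes of the study. The members and lists were chosen with earlier results of these data known. Promoter windows came from RefSeq (GRCm38.p6), which matched 3 of 4 genes. Replicate numbers did not pair the mice. Alternatives were DESeq2, its size factors, other filters on low counts, only the 2 groups, a replicate block, Xist as covariate, robust and bias-adjusted fits, FDR 0.05 and leaving out each mouse.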

Additional observations from a re-analysis of the deposited data

Results flagged for a closer look

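Genes whose difference changed between the zQ175 and zQ175:CK2a'(+/-) genotypes by a test of that difference were 3 in number. Csnk2a2 differed by -0.99, 4933406B17Rik by 3.68 and Nr4a2 by -2.23 on the log2 scale (edgeR, adjusted p under 0.1 each, as given above).

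A single mouse lay far from the other 4 of its group in 12 of 284 groups checked over 142 named genes, and chance alone gives about 1 in 20. In WT mice the highest value stood apart for Csnk2a1 (68.4 CPM, replicate 2), Gm37485 (2.98 CPM, replicate 4), Gabrq (12.7 CPM, replicate 1), Grin2a (241 CPM, replicate 2), Hspb1 (3.46 CPM, replicate 4) and Oasl2 (5.03 CPM, replicate 1). In zQ175:CK2a'(+/-) mice the highest value stood apart for Oasl2 (6.79 CPM, replicate 4) and, in replicate 2, for Steap4 (2.01 CPM) and the choroid plexus markers Prlr (92.2 CPM), Otx2 (17.5 CPM) and Clic6 (44.4 CPM), and the lowest for the pericyte-associated Vtn (22.7 CPM, replicate 3). Replicate 2 is the zQ175:CK2a'(+/-) library with the summed choroid plexus level of 4524 CPM, and without it Prlr differed from WT by -3.00 and Otx2 by -2.32 on the log2 scale.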

How the results depend on the processing

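The count of 3 genes in edgeR moved with the processing. It was 85 with no filter on low counts, 6 with a robust and 5 with a bias-adjusted fit, 1 with only the 2 groups compared, 1 at FDR 0.05 and 123 in DESeq2, and it stayed at 3 with DESeq2's size factors, with at least 10 counts in 10% of the libraries and with Xist as a covariate. Leaving out each of the 18 mice gave 1 to 34 genes in edgeR, the highest without WT replicate 2 (34) and WT replicate 4 (33), and 1 without WT replicate 1 or 3, zQ175:CK2a'(+/-) replicate 1, 2, 4 or 5, zQ175 replicate 5 or CK2a'(+/-) replicate 2. It was 7 without zQ175 replicate 3 and 5 without WT replicate 5. DESeq2 gave 19 to 421 genes when each of the 10 mice was left out. Settings added after seeing the data were leaving out WT replicates 4 and 5, with 217 genes in edgeR and 442 in DESeq2, and leaving out WT replicates 1 and 3 and zQ175:CK2a'(+/-) replicate 2, with 1 and 7. Of the 123 DESeq2 genes, 91 were shared with the first set and 5 with the second. The causes were not tested.

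Labelled replicate numbers did not pair the mice, as the correlations of same-numbered mice between the groups ran from -0.06 to 0.03. With the replicate number as a block 1 gene passed, and Prlr and Otx2 turned to -0.13 and -0.0131 on the log2 scale.

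Csnk2a2 kept its call in every setting, and its difference in log2 CPM ran from -0.88 to -0.80 with a mouse left out. Over 142 named genes, 3957 of 4110 values kept direction and side of the threshold, 27 lost and 106 gained a call, and 20 turned sign, none of them a gene that passed in either tool. Those were Csnk2b (-0.0839 to 0.0219 with a mouse left out, 0.0747 without WT replicates 4 and 5), and, with a mouse left out, Sphk1 (-0.0588 to 1.20), Prlr (-3.00 to 1.06), Otx2 (-2.32 to 1.14), Clic6 (-1.23 to 0.26), Zic4 (-0.53 to 0.0937) and Oasl2 (-0.13 to 0.72). The low ends of Sphk1, Prlr, Otx2 and Clic6 came without zQ175:CK2a'(+/-) replicate 2. Without WT replicates 4 and 5, Prlr was at -0.26 and Otx2 at -0.24, and without the choroid plexus libraries Gabrq was at 0.26, Sncg at 0.18, Calb2 at 0.29, Otx2 at -0.00636 and Zic4 at 0.51. Myh7b lost its call in 15 of 29 settings and Gabrd in 12. Of 1148 list medians 18 moved by more than the SD of the list's level between mice of a group. That SD is wide where WT mice differ, so the report gives such values for the lists it describes whose medians lay beyond 0.1 on either side of 0 and changed by over 1.5 times. Medians of 24 lists nearer 0 ran from -0.24 to 0.16 with a mouse left out, often with either sign, choroid plexus markers (-2.96 to 0.68) being counted apart. At low counts such as those of 4933406B17Rik in WT, differences are loosely bounded.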
